A study of Homo sapiens with 4 samples.

Results

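MDA-MB-361 cells expressing the IBC-II hairpin against dermcidin (DCD) were compared with MDA-MB-361 cells carrying pLKO across all genes of the Affymetrix U133 Plus 2.0 array. MDA-MB-361 is an established HER2-positive luminal breast cancer line, and pLKO is the lentiviral vector that carries the hairpins and, in the control cells, was introduced as a control vector whose insert the labels do not state. The comparison used 2 of the 4 arrays of the series, the array titled for shDCD clone 2, matched to the name IBC-II by its clone number, and the pLKO array. The other 2 arrays carry shDCD clones 1 and 3 (IBC-I and IBC-III). The samples were chosen from the labels and from the control probe sets for GAPDH and ACTB described below. IBC-II is 1 hairpin line, called a clone in the labels and both a clone and a pool in the study's text, and each side has 1 array. No test between conditions is therefore possible, no p-value is given, and every difference is a difference between 2 hybridizations. Total RNA was used, and more RNA per cell of one kind cannot be told apart from more cells of one kind.

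Dermcidin is a small secreted protein made mainly by eccrine sweat glands, where its fragments act as antimicrobial peptides, and it has been studied as a factor that helps breast cancer cells grow and survive. Cells adjust transcription to amino acid supply and to protein folding in the endoplasmic reticulum through the factors ATF4, XBP1 and ATF6, to oxygen through the HIF factors, and to growth factor receptors of the ERBB family through ERK. The genes these factors control are well known, so lists of them can be read directly from an array.

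DCD was not measurable. Its probe set had a deposited intensity of 6 in IBC-II and 2 in pLKO, and values under 16 were treated as unmeasured and set to 16, called the floor below. The arrays therefore do not check the knockdown. IBC-II and pLKO had the lowest 3′ to 5′ ratios of the control probe sets for GAPDH in the series, 1.02 and 1.09, against 2.18 in IBC-I and 13.1 in IBC-III. The match was less close for ACTB, where the ratio was 2.58 in IBC-II and 5.29 in pLKO. A high ratio marks degraded RNA or incomplete labelling. The 9 spiked control probe sets differed between the arrays by between 0.976-fold and 1.14-fold, and the median deposited intensity was 24.7 in IBC-II and 20.6 in pLKO. The 6 human ribosomal RNA control probe sets stood at between 0.527-fold and 10.1-fold of pLKO, with 5 brighter and 1 dimmer in IBC-II, and the part of RNA quality in the gene differences was not tested. Intensities were quantile normalized over the 4 arrays and are given below as normalized intensities, and differences are log2(IBC-II) minus log2(pLKO) of the brightest probe set of a gene unless stated.

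The arrays showed a luminal epithelial line on both sides. Of 27 luminal markers with a named probe set, 25 had normalized intensities of at least 64 on both arrays, including GATA3, ESR1, KRT8, KRT18 and EPCAM. Their summed intensity was 48772 in IBC-II and 42885 in pLKO. ANKRD30A of this list lay at the floor on both. Of 20 basal and mesenchymal markers, CDH3, CD44 and EGFR reached 64 on both arrays, and 8, KRT5 and KRT14 among them, lay at the floor on both. Of 12 fibroblast markers, COL1A1 alone reached 64 on both arrays, and PDGFRA, PDGFRB, FAP, LUM, POSTN and COL6A3 lay at the floor on both. Of 10 endothelial and leukocyte markers none reached 64 on both arrays, and CDH5, PTPRC and CD14 lay at the floor. The summed intensities in IBC-II and pLKO were 1395 and 1428 for basal and mesenchymal markers and 396 and 392 for fibroblasts. They were 294 and 299.7 for endothelial cells and leukocytes.

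Most genes had nearly the same level on the 2 arrays. At 3-fold or more, the fold the study used, 225 of 27307 probe sets were lower in IBC-II (0.824%) and 156 were higher (0.571%). The study required that fold in each of its 3 comparisons with pLKO, so its gene counts are not comparable with these. Of 12728 genes, 552 were at least 2-fold lower (4.34%) and 424 at least 2-fold higher (3.33%), and 118 (0.927%) and 64 (0.503%) passed 3-fold. Which side held more genes depended on the scaling. At 2-fold, median centring gave 595 lower and 638 higher and the values as deposited gave 400 and 1491, so the excess of lower genes turned. The median difference over all genes was 0 and the SD was 0.57. Divided by level into 4 equal groups, the dimmest genes had an SD of 0.66 and the other groups had SDs between 0.50 and 0.56, so dim genes scattered more. The spread that the data give for a single gene is that between its own probe sets. Probe sets of a gene share RNA and array, so this spread leaves out variation between cultures and between hybridizations. Over 5610 genes with more than 1 analysed probe set, the pooled SD of the log2 difference was 0.44, which is 1.36-fold. Of 344 such genes that were at least 2-fold from pLKO by their brightest probe set, 237 (68.9%) had all probe sets on the same side.

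**Figure D1:**
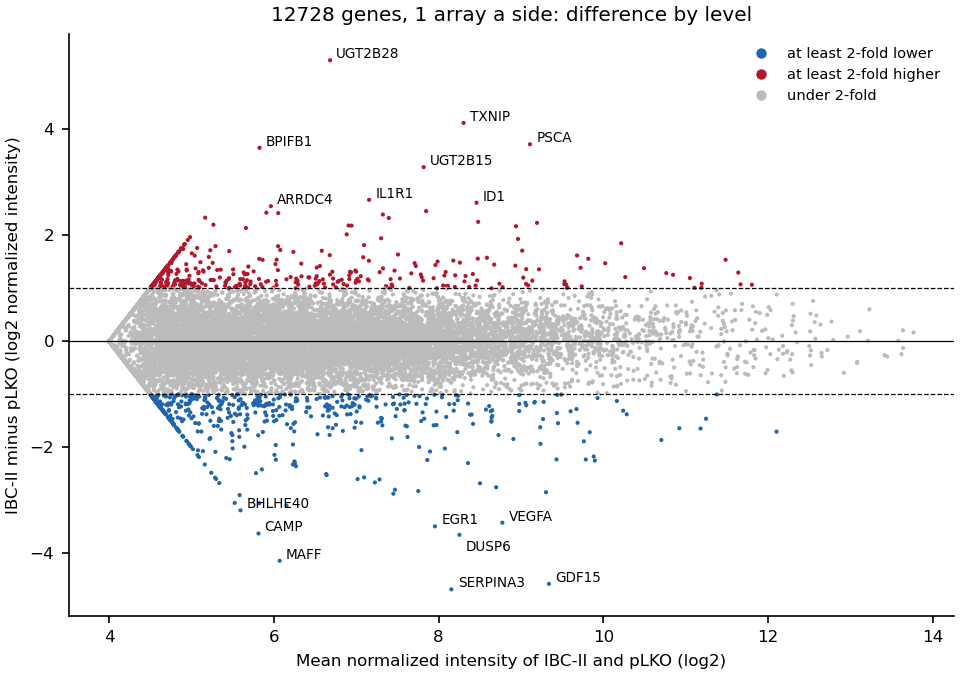
Difference between IBC-II and pLKO (log2 normalized intensity, y axis) against the mean level of both arrays (log2, x axis), 1 point a gene, with dashed lines at 2-fold. The 552 lower genes (blue) and 424 higher genes (red) lie at all levels, and the diagonal edges at the left are genes at the floor of 16 on 1 array.

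The genes furthest below pLKO were secreted stress and acute-phase proteins, immediate-early genes and regulators of ERK signalling. SERPINA3, a secreted inhibitor of serine proteases of the acute phase, had normalized intensities of 56.3 in IBC-II and 1445 in pLKO, 25.7-fold lower. GDF15, a cytokine released by stressed cells, had 133 in IBC-II and 3167 in pLKO, 23.9-fold lower, and its other probe set was 2.18 lower on the log2 scale. Both were bright in pLKO, so the difference does not rest on the floor. MAFF, a small basic leucine zipper factor induced by stress, lay at the floor in IBC-II and at 283 in pLKO, at least 17.7-fold lower, but its other probe set differed by -1.30 only. CAMP, which encodes the antimicrobial peptide cathelicidin, lay at the floor in IBC-II and at 198 in pLKO, at least 12.4-fold lower. Genes at the floor have bounds and no measured fold.

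The rest of the 15 lowest genes belonged to several groups. DUSP6 and EGR1 are read-outs of ERK and VEGFA, BHLHE40 and DDIT3 are stress genes, all described below. PPP1R1B, a phosphatase regulator encoded beside ERBB2, had 24.3 in IBC-II and 209 in pLKO, 8.59-fold lower. KLHDC7B was 8.32-fold lower, the chemokine CXCL8 lay at the floor in IBC-II and at 133 in pLKO, and RBCK1, a subunit of the linear ubiquitin ligase, was 7.21-fold lower with 235 against 1697. EEF2KMT (17.5 against 131) and CYP2B7P (64.6 against 474) belong to families with near-identical copies, so which copy was read is uncertain.

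The genes furthest above pLKO were led by enzymes of steroid glucuronidation, TXNIP and secretory epithelial products. UGT2B28 had 647 in IBC-II and 16.3 in pLKO, just above the floor, and UGT2B15 had 706 and 72.3, 9.77-fold higher. These enzymes conjugate androgens to glucuronic acid for excretion, and their genes are so alike that probe sets can read several of them. PSCA, a surface antigen of the prostate and other epithelia, had 2006 in IBC-II and 152 in pLKO, 13.2-fold higher. BPIFB1, a secreted protein of mucosal surfaces, had 201 in IBC-II and lay at the floor in pLKO, at least 12.6-fold higher. The interleukin-1 receptor IL1R1 had 360 and 56.5, 6.37-fold higher, and PIP, the prolactin-induced protein of apocrine glands, had 377 and 75.2, 5.02-fold higher. SOCS2, a feedback inhibitor of growth hormone and prolactin signalling, had 540 and 98.3, 5.50-fold higher, and the kinase inhibitor PKIA, which binds protein kinase A, had 780 and 164, 4.77-fold higher. All of these were brighter in IBC-II than the dim end of the array, and BPIFB1 and MUC19 alone among the 15 lay at the floor in pLKO.

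**Figure D2:**
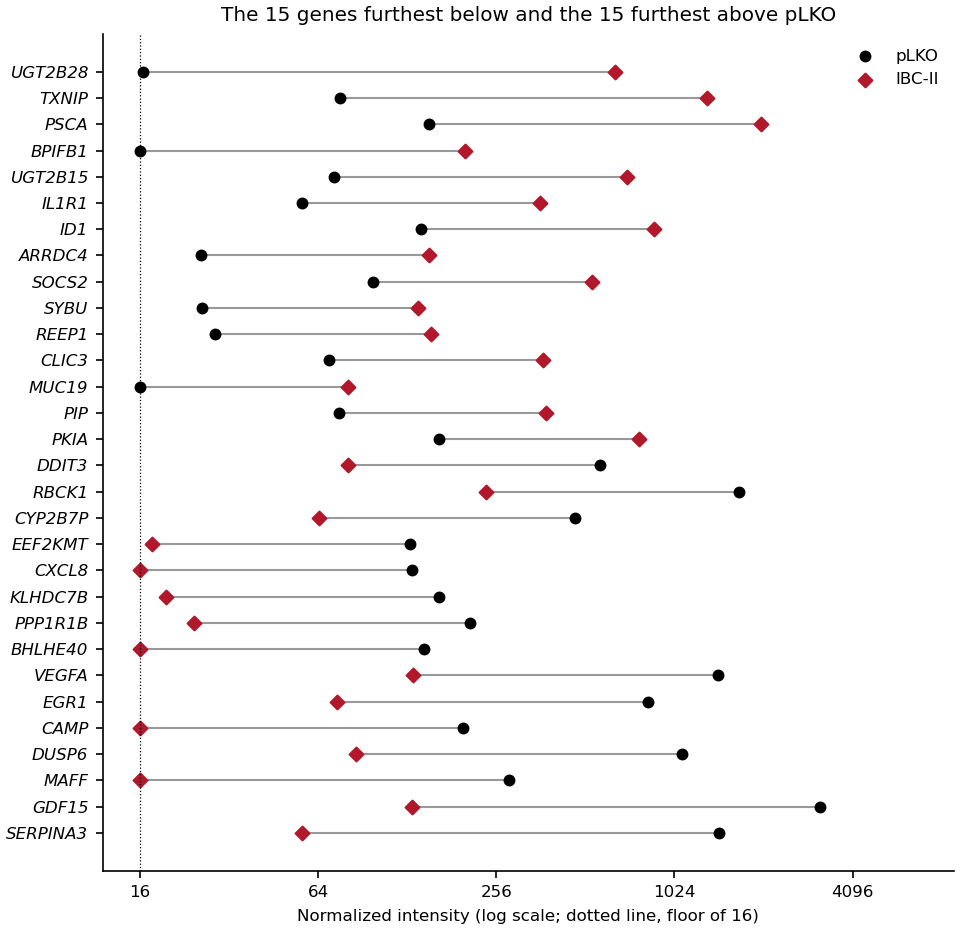
Normalized intensity (x axis, log scale) of the 15 genes furthest below and the 15 furthest above pLKO among genes of at least 64 on 1 array, in pLKO (black circles) and IBC-II (red diamonds). MAFF, CAMP, BHLHE40 and CXCL8 lie at the floor of 16 (dotted line) in IBC-II, BPIFB1 and MUC19 in pLKO.

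Some genes are read by several probe sets that all gave the same answer. Of 2349 genes with 3 or more analysed probe sets, 12 were at least 2-fold lower by every one of them and 8 at least 2-fold higher. DUSP6 had a median over 3 probe sets of -4.30, RBCK1 of -2.85, EGR1 of -2.72, VEGFA of -2.44 over 4, and AK4, a mitochondrial adenylate kinase, of -1.78 over 4, 1 of them at the floor in IBC-II. CYP2A6 was -2.44 over 4 probe sets, which can also read its near-identical neighbours. On the higher side, the 3 probe sets of TXNIP differed by 4.12, 4.76 and, with pLKO at the floor, at least 5.68. PPP3CA, the catalytic subunit of calcineurin, had 976 in IBC-II and 256 in pLKO and a median of 1.93 over 3 probe sets (SD 0.34). BANK1, ATP2A3, OGFRL1, CDK6, ARHGDIB and DBI followed, with medians between 1.18 and 2.09. DBI, which binds acyl-CoA esters, had the closest probe sets of these, with an SD of 0.06.

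**Figure D3:**
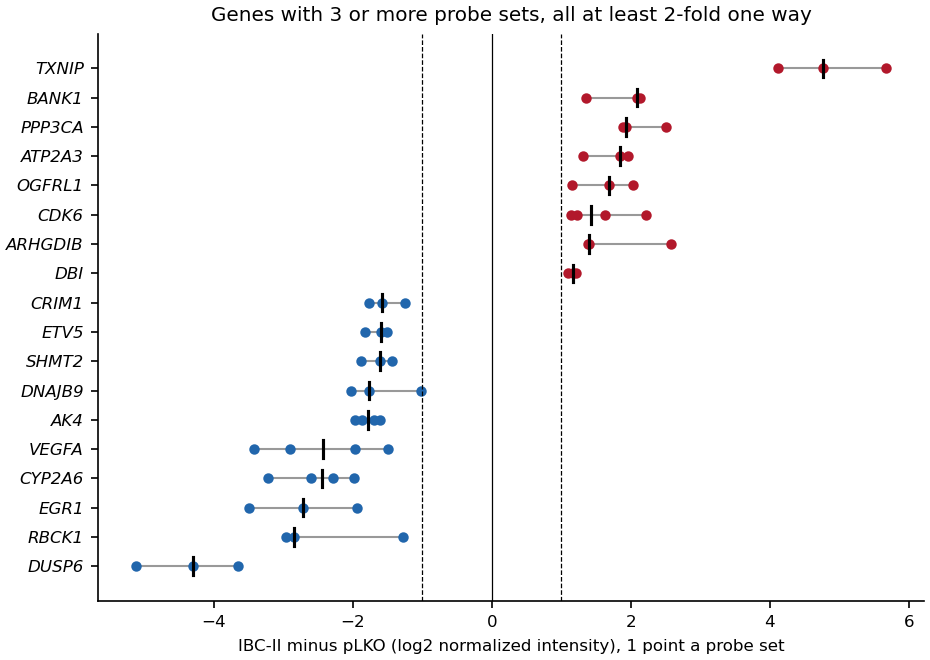
Difference between IBC-II and pLKO (log2 normalized intensity, x axis) of each probe set (points), with its range (grey line) and median (black bar), for the named genes with 3 or more probe sets all at least 2-fold one way. The 3 probe sets of TXNIP lie at 4.12 and above and the 3 of DUSP6 at -3.65 and below, and the furthest of each is a bound because 1 array is at the floor.

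Genes of the ATF4 response were lower as a group. ATF4 is translated when amino acids run short or the endoplasmic reticulum is stressed, and it induces genes that make, import and charge amino acids. Of 34 analysed members, 33 were lower than pLKO and 1 higher, with a median of -1.36. At least 2-fold lower were 23 (67.6%, against 4.34% of all genes) and none was 2-fold higher. DDIT3, which encodes the stress factor CHOP, had 81.0 in IBC-II and 575 in pLKO, 7.10-fold lower. ASNS, asparagine synthetase, had 63.1 and 385, 6.09-fold lower, and PHGDH, which opens serine synthesis, had 116 and 490, 4.23-fold lower. SHMT2, the mitochondrial serine hydroxymethyltransferase, had 452 and 1673 and was lower by all 3 probe sets (median -1.61, SD 0.23). The amino acid carriers SLC7A5 (1099 against 3429), SLC7A1 (199 against 587) and SLC7A11 (45.1 against 130) were 3.12-fold, 2.95-fold and 2.88-fold lower. ATF4 itself differed by -0.79.

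The enzymes that load amino acids onto transfer RNA, many of which ATF4 controls, lay on the same side. Of 17 analysed cytosolic aminoacyl-tRNA synthetases, 15 were lower and 2 higher, with a median of -0.90, and 7 (41.2%) were at least 2-fold lower. WARS1 had 165 in IBC-II and 543 in pLKO, 3.28-fold lower, AARS1 had 769 and 1904, 2.48-fold lower, and SARS1 had 256 and 631, 2.47-fold lower by both probe sets (SD 0.01). With the mean over all probe sets of a gene the list's median was -0.32. Of 18 amino acid and peptide transporters 7 are also in the ATF4 list, and the 11 others were mixed, 6 higher and 5 lower, with a median of 0.29. SLC15A2, a peptide transporter, had 53.9 in IBC-II and lay at the floor in pLKO. Its other probe sets differed by 1.94, with pLKO at the floor, and by -0.29. SLC7A2, which carries arginine, had 79.4 and 24.4, 3.26-fold higher.

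The promoter of ASNS holds the letters of an ATF4 element and is shown because ASNS was among the lowest of the list. It is the 250 bases before the start of transcription (RefSeq, GRCh38.p14, chr7:97872409-97872658, minus strand), written 5′ to 3′ with the match to TGATGNAA in capitals.
ASNS: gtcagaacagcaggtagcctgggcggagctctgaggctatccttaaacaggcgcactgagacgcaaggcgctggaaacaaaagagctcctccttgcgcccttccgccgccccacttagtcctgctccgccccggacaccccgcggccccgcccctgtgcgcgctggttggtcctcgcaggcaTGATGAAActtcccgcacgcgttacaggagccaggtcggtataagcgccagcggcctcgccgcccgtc
The match began 68 bases before the start. Searched on both strands of the same window, TGATGNAA was found in 5 of 28 promoters of the ATF4 list (ASNS, ATF3, CEBPG, CHAC1 and SLC1A5), in 3 of 14 synthetase promoters (AARS1, GARS1 and IARS1), in 2.53% of analysed genes and in 3.89% of all 27305 genes with a promoter. A match is a description of the letters and does not show binding.

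Genes that ERK induces were lower in IBC-II for the most part. ERK is the last kinase of the pathway from receptor tyrosine kinases through RAS, and it turns on immediate-early factors and its own inhibitors. Of 26 analysed members, 20 were lower and 6 higher, with a median of -1.15, and 14 (53.8%) were at least 2-fold lower and none 2-fold higher. DUSP6, the phosphatase that inactivates ERK, had 86.1 in IBC-II and 1082 in pLKO, 12.6-fold lower. EGR1, an immediate-early zinc finger factor, had 74.0 and 833, 11.3-fold lower. ERRFI1, an inhibitor of EGFR and HER2 kinases, had 160 and 1079, 6.75-fold lower. ETV5, an ETS factor, had 19.9 and 70.6, 3.55-fold lower, and MYC had 30.6 and 135, 4.42-fold lower. Members on the other side were KLF6, PLAUR, ETV1, ELK3, SPRY1 and CCND1, with differences between 0.08 and 0.68. With a floor of 64 the list's median was 0.

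The promoter of EGR1 is shown for its CArG boxes, the letters bound by serum response factor, through which ERK acts on immediate-early genes. It lies at chr5:138465229-138465478 (RefSeq, GRCh38.p14, plus strand) and is written 5′ to 3′ with the CArG boxes in capitals.
EGR1: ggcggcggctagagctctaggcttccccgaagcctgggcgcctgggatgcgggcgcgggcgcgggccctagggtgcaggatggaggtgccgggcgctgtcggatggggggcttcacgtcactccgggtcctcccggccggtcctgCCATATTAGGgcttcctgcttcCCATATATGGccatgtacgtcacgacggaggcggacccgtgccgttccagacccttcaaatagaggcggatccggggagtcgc
The 2 boxes began 105 and 83 bases before the start. EGR1 was the single gene of 18 ERK-responsive genes with a promoter that held a CArG box in this window, and 1.44% of all genes did.

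The low oxygen list was lower as well. HIF factors induce these genes when oxygen is scarce and in some tumour cells at normal oxygen. Of 31 analysed members, 28 were lower and 3 higher, with a median of -1.01, and 16 (51.6%) were at least 2-fold lower and none 2-fold higher. VEGFA, the main angiogenic growth factor, had 134 in IBC-II and 1434 in pLKO, 10.7-fold lower, and its 4 probe sets differed by between -3.42 and -1.49. BHLHE40, a transcriptional repressor of the clock and of hypoxia, lay at the floor in IBC-II and at 146 in pLKO, at least 9.13-fold lower. PDK1, a kinase that inhibits pyruvate dehydrogenase, had 41.6 and 240, 5.76-fold lower, and P4HA1, a collagen prolyl hydroxylase, had 148 and 727, 4.92-fold lower. HILPDA, a lipid droplet protein, had 433 and 1107, 2.55-fold lower, and the mitophagy receptor BNIP3 had 484 and 1405, 2.90-fold lower. VEGFB, which low oxygen does not induce, had 67.1 and 98.2, a difference of -0.55. STC2 is in both this list and the ATF4 list.

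Most glycolytic enzymes were lower. Among 17 analysed genes 13 lay below pLKO and 4 above, the median was -0.77, and 5 (29.4%) were at least 2-fold lower. ENO2 had 59.5 in IBC-II and 377 in pLKO, 6.34-fold lower, TPI1 had 874 and 3180, 3.64-fold lower, and HK2 had 236 and 675, 2.86-fold lower. The second probe sets of HK2 and PFKP were dim, at the floor in pLKO, and lay the other way. ENO1 differed by -0.94, GPI by -0.97, PFKL by -0.88, HK1 by -0.12 and ALDOA by 0.11, and ALDOC was 1.04 higher. ENO2 and HK2 are forms induced by HIF in many cells, while TPI1 and GPI are the single forms of their enzymes.

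The promoter of P4HA1 carries the core letters of the hypoxia response element. It lies at chr10:73096867-73097116 (RefSeq, GRCh38.p14, minus strand), is written 5′ to 3′, and has the match to ACGTG, here on the opposite strand as CACGT, in capitals.
P4HA1: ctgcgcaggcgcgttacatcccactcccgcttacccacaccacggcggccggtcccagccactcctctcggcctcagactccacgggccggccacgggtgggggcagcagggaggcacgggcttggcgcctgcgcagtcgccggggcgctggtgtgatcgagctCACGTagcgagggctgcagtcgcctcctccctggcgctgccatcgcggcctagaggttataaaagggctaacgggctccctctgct
The match began 86 bases before the start. ACGTG was found on either strand in 16 of 26 promoters of the low oxygen list and in 11 of 17 of the glycolysis list. It is a short motif that also sits inside CACGTG, and 21.7% of all genes and 28.2% of analysed genes held it.

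Chaperones and disulfide isomerases of the endoplasmic reticulum were modestly lower. Of 30 analysed members, 28 were lower and 2 higher, with a median of -0.58, and 8 (26.7%) were at least 2-fold lower and none 2-fold higher. DNAJB9, a co-chaperone induced by IRE1 and XBP1, had 134 in IBC-II and 544 in pLKO, 4.07-fold lower and lower by all 3 probe sets. HSPA5 (GRP78), the main chaperone of the compartment, had 1312 and 4105, 3.13-fold lower. MANF had 137 and 376, 2.75-fold lower. Among the disulfide isomerases PDIA4 was 2.54-fold lower (141 against 356), PDIA3 2.21-fold lower (387 against 855) and PDIA6 1.97-fold lower (752 against 1481), the last with a median of -0.97 over 4 probe sets and an SD of 0.03. HSPA13 (STCH) had 52.9 and 133, 2.52-fold lower, but its other probe set differed by -0.24 only. The other probe sets of PDIA3 differed by -0.88 and -0.31, and that of PDIA4 by -0.85. The cytosolic and mitochondrial heat shock list, by contrast, had a median of 0.19 over 16 members, with none at 2-fold, HSPA9 at -0.86 and DNAJA1 at 0.66.

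HSPA5 carries an endoplasmic reticulum stress response element (ERSE), the letters CCAAT and CCACG with 9 bases between them, read by NF-Y with ATF6 or XBP1. Its promoter lies at chr9:125241344-125241593 (RefSeq, GRCh38.p14, minus strand) and is written 5′ to 3′ with the match in capitals.
HSPA5: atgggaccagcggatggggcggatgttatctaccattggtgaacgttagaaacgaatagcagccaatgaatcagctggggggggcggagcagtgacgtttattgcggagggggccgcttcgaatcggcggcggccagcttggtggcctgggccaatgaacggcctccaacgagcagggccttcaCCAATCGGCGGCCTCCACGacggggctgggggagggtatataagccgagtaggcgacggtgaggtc
The match began 66 bases before the start. The element was found on either strand in 7 of 29 promoters of the list (CALR, CANX, CRELD2, HSP90B1, HSPA5, PDIA6 and XBP1), in 0.155% of analysed genes and in 0.0916% of all genes. CRELD2, with the element, differed by 0.05.

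TXNIP and its relative ARRDC4 were the leading alpha-arrestins, and both were higher. They lower glucose uptake and are induced by glucose through MondoA and MLX. TXNIP, which also binds thioredoxin, had 1319 in IBC-II and 75.7 in pLKO, 17.4-fold higher, and ARRDC4 had 151 and 25.8, 5.86-fold higher. The other 6 analysed members of the list lay under 2-fold, the alpha-arrestins ARRDC3 at -0.92, ARRDC2 at 0.03 and ARRDC1 at 0.51. The list median was 0.27 over 8. The promoter of ARRDC4 holds an E-box of the kind MondoA and MLX bind, at chr15:97960453-97960702 (RefSeq, GRCh38.p14, plus strand), written 5′ to 3′ with CACGTG in capitals.
ARRDC4: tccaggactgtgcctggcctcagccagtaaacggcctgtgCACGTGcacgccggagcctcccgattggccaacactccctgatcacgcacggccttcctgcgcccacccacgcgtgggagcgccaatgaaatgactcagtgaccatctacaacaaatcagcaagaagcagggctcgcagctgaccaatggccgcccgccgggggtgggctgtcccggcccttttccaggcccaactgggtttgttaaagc
The match began 210 bases before the start. CACGTG was found in 2 of 7 promoters of the list (ARRDC4 and MLX), in 7.73% of all genes and in 11.1% of analysed genes.

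The ERBB family, the receptors of epidermal growth factor and the neuregulins, is the one through which the study proposes that DCD acts. EGFR had 93.4 in IBC-II and 267 in pLKO, 2.85-fold lower, and its 3 bright probe sets differed by -1.51, -1.48 and -1.24. Its other 3 probe sets were dim on both arrays and differed by between -0.10 and 0. BTC (betacellulin), a ligand of EGFR and ERBB4, had 37.4 and 94.7, 2.53-fold lower, and its second probe set was lower too (-1.04). ERBB2 (HER2), the amplified receptor of this line, had 3517 and 2347, a difference of 0.58, while of its other probe sets 1 had 74.6 in IBC-II and lay at the floor in pLKO and 1 differed by 0.08. EGFR and BTC were the members at 2-fold, and ERBB2 lay on the other side. Under other normalizations, floors, filters and choices of probe set ERBB2 lay between 0.30 and 0.96. The lower end is under the pooled SD between probe sets, 0.44.

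The other receptors and ligands differed by less than the pooled SD between probe sets, 0.44, by their brightest probe set. ERBB3 had 632 in IBC-II and 613 in pLKO. ERBB4 was dim, with probe sets at -0.15 and 0.73. TGFA differed by 0.34, EGF by -0.19 and NRG2 by -0.16. Of the 15 listed members 8 were analysed, with a median of -0.16. The remaining ones did not pass the filter on low levels or, like AREG, had no probe set matched to a single gene, and were not analysed here.

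**Figure D4:**
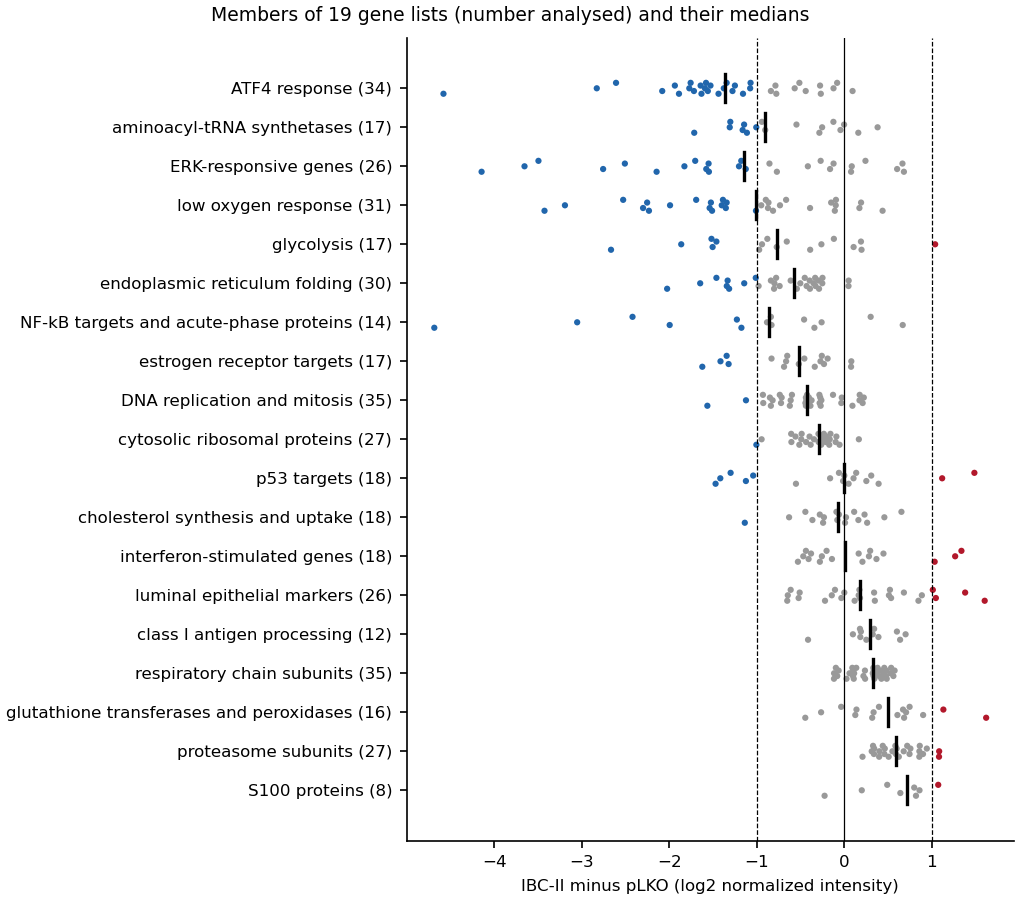
Difference between IBC-II and pLKO (log2 normalized intensity, x axis) of each analysed member (points) of 19 gene lists, with the list median (black bar), dashed lines at 2-fold and points past 2-fold in blue (lower) and red (higher). The ATF4 list has a median of -1.36, and the 27 proteasome subunits all lie above 0.

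Subunits of the proteasome were higher without exception among those analysed. All 27 were higher in IBC-II, by between 0.21 and 1.08, with a median of 0.59, and 2 of them (7.41%, against 3.33% of all genes) passed 2-fold. PSMB6, the caspase-like catalytic subunit of the core, had 1073 in IBC-II and 507 in pLKO, and the ATPase subunit PSMC2 had 778 and 367, both 2.12-fold higher. The other 2 probe sets of PSMC2 differed by 0.16 and 0.33. Subunits of the respiratory chain were higher too, 30 of 35, with a median of 0.33 and none at 2-fold, led by NDUFV2 (0.57) and NDUFB3 (0.56). More than the pooled SD between probe sets, 0.44, were the differences of 19 proteasome subunits and of 9 respiratory chain subunits. That SD leaves out variation between arrays. ACTB was higher by 0.60 in 3 probe sets (SD 0.01) but -0.06 with scaling to a common trimmed mean, and GAPDH was 0.19 but -0.34 with that scaling and -0.22 with median centring. The part of RNA quality in these shifts was not tested.

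Cytosolic ribosomal proteins lay slightly below pLKO, 26 of 27 lower and 1 higher, with a median of -0.29. RPL12 had 1880 in IBC-II and 3771 in pLKO, 2.01-fold lower, and RPS6 had 2069 and 3151, lower by 0.61 with an SD of 0.07 over 3 probe sets. Replication and mitosis genes were also mostly lower, 30 of 35, with a median of -0.43. BUB1, a kinase of the spindle checkpoint, lay at the floor in IBC-II and at 47.3 in pLKO, and TPX2, a spindle assembly factor, had 96.1 and 209, 2.18-fold lower. Among cyclins and their kinases CDK6, which drives entry into the cell cycle, had 124 and 52.8, 2.34-fold higher, with a median of 1.43 over 4 probe sets, 2 of them at the floor in pLKO, and CCNG1 had 91.3 and 188, 2.06-fold lower.

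Targets of p53 had no common direction, with a median of -0.01 over 18. At least 2-fold lower were 5 (27.8%, against 4.34% of all genes) and at least 2-fold higher 2 (11.1%, against 3.33%). GADD45A had 53.6 in IBC-II and 143 in pLKO and TNFRSF10B, a death receptor, had 41.7 and 103, while TP53INP1 had 513 and 183, 2.80-fold higher, and its second probe set was at the floor on both arrays. Of 19 analysed BCL2 family members 11 were lower and 8 higher, with a median of -0.45. BNIP3, BCL2L14 and the pore-forming BAX (27.3 against 59.5) were at least 2-fold lower, 3 of 19 (15.8%, against 4.34% of all genes). The list's median, BCL2L14 and BAX each came to 0 under at least 1 alternative.

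Inflammatory and acute-phase genes were mostly lower. Of 29 listed genes 14 were analysed, 12 lower and 2 higher, with a median of -0.86 and 6 (42.9%) at least 2-fold lower. With a floor of 64 the list's median was 0. NFKB1 (0.67) and SOD2 (0.30) were the higher members. The lower genes at 2-fold included, beside SERPINA3 and CXCL8, the protease inhibitors SERPINA5 (134 in pLKO, 5.35-fold lower in IBC-II) and AMBP (109 against 434, 3.98-fold lower). Interferon-stimulated genes had a median of 0.01 over 18, with ISG15 (123 against 60.4) and IFI35 (70.6 against 29.4) 2.04-fold and 2.41-fold higher. Genes of class I antigen processing were higher in 11 of 12, with a median of 0.29 and none at 2-fold.

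Luminal markers were mixed and estrogen receptor targets mostly lower. Of 26 luminal markers 16 were higher and 9 lower, with a median of 0.18. At least 2-fold higher were 4 (15.4%, against 3.33% of all genes), and none was 2-fold lower. TFF1 and EHF (both -0.65), XBP1 (-0.61), ESRP1 (-0.52) and CLDN3 (-0.51) were lowest. GATA3, the luminal transcription factor, had 2327 in IBC-II and 894 in pLKO, 2.60-fold higher with a median of 1.38 over 3 probe sets, KRT8 had 3130 and 1553, 2.02-fold higher, and GRHL2 had 394 and 191, 2.06-fold higher. Of 17 estrogen receptor targets, 15 were lower and 2 higher, with a median of -0.52 and 4 (23.5%) at least 2-fold lower. GREB1, a cofactor of the receptor, had 343 and 1057, 3.08-fold lower, and IGFBP4 had 251 and 628, 2.50-fold lower.

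The list of DCD neighbours and sweat gland or apocrine products was lower in 5 of 6 analysed members. Its median was -0.83, which was 0 with a floor of 64. In IBC-I the list median was -0.95 and in IBC-III 0.73. SCGB1D2 had 445 in IBC-II and 2006 in pLKO, 4.51-fold lower, SCGB2A2 (mammaglobin) had 2436 and 7940, 3.26-fold lower, and MUCL1, a small mucin-like protein encoded next to DCD, had 352 and 814, 2.31-fold lower. AZGP1 differed by -0.46 and SCGB2A1 by -0.20, and PIP, given above, was the higher member. In the 17q12 amplicon, the stretch of DNA copied with ERBB2, the median over 14 genes was -0.10. PPP1R1B, PNMT (at the floor against 96.9) and TCAP (at the floor against 37.6) were at least 2-fold lower, 3 of 14 (21.4%, against 4.34% of all genes). ERBB2 was 0.58 higher.

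Of 15 analysed targets of TGF-beta, BMP and YAP, 11 were higher and 4 lower, with a median of 0.25. ID1 had 873 in IBC-II and 142 in pLKO, 6.14-fold higher, ID3 had 238 and 58.7, 4.05-fold higher, and the decoy receptor BAMBI had 5174 and 2468, 2.10-fold higher. These genes encode inhibitors of differentiation factors and of the receptor itself. TGFBI, a matrix protein induced by TGF-beta, lay at the floor in IBC-II and at 61.6 in pLKO, at least 3.85-fold lower. Other members lay under 2-fold, ID4 at 0.94, ID2 at 0.88, SMAD7 at 0.29 and SMAD6 at 0.10. S100 proteins, small calcium-binding proteins, were higher in 7 of 8, with a median of 0.72 and S100A13 at 2.10-fold. Glutathione transferases and peroxidases were higher in 13 of 16, with a median of 0.50. Past 2-fold were 2 of them (12.5%, against 3.33% of all genes). GSTM3 had 1439 and 468, 3.07-fold higher, and the secreted peroxidase GPX3 had 194 and 88.5, 2.19-fold higher. PRDX1, a peroxiredoxin of the NRF2 and thioredoxin list, had 4713 and 2238, 2.11-fold higher, and that list had a median of 0.09.

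Lipid synthesis genes stayed near pLKO. Cholesterol genes had a median of -0.07 over 18 and fatty acid genes of -0.12 over 10, with the desaturase FADS2 (47.6 against 95.9) and the cholesterol carrier STARD4 (28.1 against 61.7) at 2-fold. The laminin-binding integrin subunit ITGA6 had 56.2 in IBC-II and 333 in pLKO, 5.94-fold lower. Its second probe set lay at the floor in IBC-II and at 100 in pLKO, so its difference of -2.65 is a bound. IRS2, an adaptor of the insulin receptor, had 30.3 and 104, 3.42-fold lower, and the NOTCH target HEY2 had 39.1 and 109, 2.80-fold lower. TFEB, a regulator of lysosome genes, had 85.3 and 34.2, 2.50-fold higher, but its other probe set differed by 0.20 only. The lysosomal protease CTSL had 122 and 301, 2.47-fold lower, and the lysosome list had a median of 0.06. The stem cell factor SOX2 had 82.6 in IBC-II, 4.60-fold higher by 1 of 3 probe sets, and SOX4 and SOX9 differed by -0.59 and -0.64.

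The other hairpin lines share the pLKO array, so their differences are given side by side and are not independent. By the same fold rule 1157 genes were at least 2-fold lower and 917 higher in IBC-I, and 2848 and 1896 in IBC-III, the array with ACTB and GAPDH ratios of 42.6 and 13.1. The list medians in IBC-II, IBC-I and IBC-III were -1.36, -1.05 and -0.02 for the ATF4 response, -1.15, -0.85 and -1.02 for ERK-responsive genes, and -1.01, -0.58 and -0.66 for low oxygen. They were 0.59, 0.09 and -0.54 for the proteasome, and -0.43, 0.36 and -2.24 for replication and mitosis, in the same order. For DUSP6 the same arrays were 12.6-fold, 2.41-fold and 1.30-fold below pLKO. For ID1 the IBC-II array was 6.14-fold above pLKO, IBC-I 1.24-fold above and IBC-III 5.90-fold below. TXNIP was 17.4-fold, 29.3-fold and 2.11-fold higher and EGFR 2.85-fold, 2.80-fold and 5.28-fold lower. No difference between hairpin lines was tested.

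**Figure D5:**
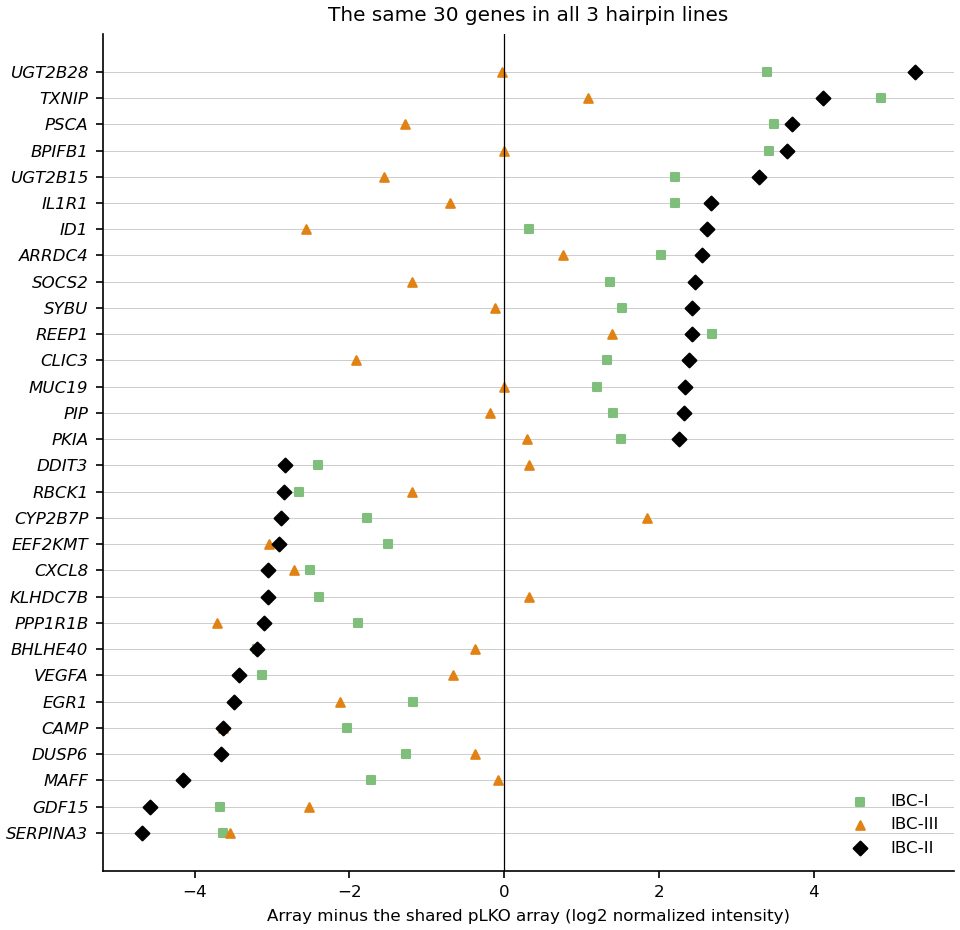
Difference from the shared pLKO array (log2 normalized intensity, x axis) of the 15 lowest and 15 highest genes of IBC-II (black diamonds), with the same genes in IBC-I (green squares) and IBC-III (orange triangles). The genes were chosen on IBC-II. Of BHLHE40 in IBC-I and CAMP in IBC-III the marker lies under that of IBC-II, since both arrays are at the floor.

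Along the genome, most stretches of neighbouring genes lay near pLKO. Running medians over 25 analysed genes in a row, in the gene order of GRCh38.p14, gave 12146 windows, of which the central 90% lay between -0.20 and 0.19. The lowest, from ACTMAP to RPS19 on chromosome 19, was -0.51, and the highest, from SLC4A8 to SLC61A1, was 0.49. Over 51 genes the extremes were -0.34 (FBXO27 to CEACAM4, also on chromosome 19) and 0.28 (USF3 to UMPS).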

How the data were processed

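The authors hybridized total RNA of MDA-MB-361 cells to Affymetrix U133 Plus 2.0 arrays, and deposited 1 linear intensity for each probe set on each array. Their methods name dChip, and how the deposited intensities were computed is not given in the sources. The array medians differed, so the values were taken as not normalized between arrays. Zeros were set to 0.1, log2 values of the 4 arrays were quantile normalized and values under 16 were set to 16. After 62 control probe sets were left out, 27307 probe sets were kept, those whose log2 mean over the arrays reached the median probe set. Of all probe sets, 41097 were matched to 1 gene, 1801 to several and 11777 are unnamed here. Of those with 1 gene, 41043 probe sets were matched to GRCh38.p14 through the gene identifier. The brightest probe set by mean level stood for its gene, which left 12728 genes.

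IBC-II was set against pLKO with 1 array a side, so no test was made. The spread given is the SD between probe sets of a gene, which share RNA and array. Differences were called at 3-fold for probe sets and 2-fold for genes of the 44 lists. The text names the genes furthest from pLKO, 15 each way, among those of at least 64 on 1 array, up to 10 each way whose 3 or more probe sets all passed 2-fold, up to 4 members of each list at 2-fold, the genes the study names on its arrays, and the ERBB family. Other members with values were chosen after their values were seen. The samples, lists and rules were chosen with earlier results of these data known. The precision is limited by the number of arrays. Before normalization 39.3% of probe sets lay under 16 in IBC-II and 43.4% in pLKO. Alternatives were other normalizations, floors, filters and choices of probe set. Scripts (Python 3.11.15, pandas 2.3.3, numpy 2.4.6, matplotlib 3.10.9) were tested on simulated data. Some control probe sets are not reported here. Promoter windows of 250 bases are from RefSeq, and no coordinates apply to the arrays.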

Additional observations from a re-analysis of the deposited data

Results flagged for a closer look

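Several ribosomal RNA control probe sets that the comparison leaves out were brighter in IBC-II than in pLKO at the deposited intensities. A 28S ribosomal RNA 5′ control was 10.1-fold brighter (909 against 89.7), while the middle control of the same transcript stood at 1.11-fold and the 3′ one was dimmer, at 0.527-fold (20.5 against 38.9). Of the 18S controls the 5′ one was 3.82-fold brighter (104 against 27.3) and the 3′ one 3.09-fold (275 against 88.9). The part of these controls in the gene differences was not tested.

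Among the genes named for their size or their probe sets, 8 were at least 2-fold from pLKO one way in IBC-II and at least 2-fold the other way in IBC-III, where the ACTB ratio was 42.6, and none did so in IBC-I. Over all 12728 genes, 2848 were at least 2-fold lower in IBC-III and 1896 at least 2-fold higher. The difference between the lines was not tested. On the log2 scale ID1 was 2.62 in IBC-II and -2.56 in IBC-III, CLIC3 2.39 and -1.91, UGT2B15 3.29 and -1.55, and ATP2A3 1.31 and -1.52. PSCA was 3.72 and -1.28, SOCS2 2.46 and -1.19, DBI 1.21 and -1.11, and CYP2B7P -2.88 and 1.84. Genes named only as list members are not in this count. Some of them reversed as well, among them CLU (1.13 and -3.90), ID3 (2.02 and -1.88) and HEY2 (-1.48 and 1.59).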

How the results depend on the processing

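No paired analysis was possible because each group has 1 array. Across 13 alternatives the list medians of the ATF4 response (-1.44 to -1.06), low oxygen (-1.39 to -0.63), glycolysis (-0.90 to -0.45), endoplasmic reticulum folding (-0.68 to -0.30), ribosomal proteins (-0.57 to -0.19), the proteasome (0.58 to 1.01) and the respiratory chain (0.24 to 0.62) kept their direction. The ERK, acute-phase and apocrine medians were 0 with a floor of 64, and the synthetase median -0.32 with the mean over a gene's probe sets. The medians of the BCL2, SOX, TGF-beta, heat shock and histone lists also came to 0 under at least 1 alternative. Of 124 named genes at 2-fold, 109 kept their direction wherever a value was given and 15 came to 0 under at least 1 alternative, and 70 stayed at 2-fold or more throughout. Counts moved far more. Counts are given as probe sets at 3-fold, then genes at 3-fold, lower and higher. They were 392 and 293, then 189 and 118, with quantile normalization of the 2 arrays alone, 588 and 475, then 232 and 176, with a floor of 1, 75 and 40, then 50 and 24, with a floor of 64, and 116 and 55, then 69 and 33, with an upper quartile filter. Genes at 2-fold were 203 and 138 with a floor of 64 and 252 and 171 with that filter. Median centring gave 258 probe sets and 106 genes at 3-fold and 638 genes at 2-fold on the higher side. The values as deposited, where the median of all genes was 0.36, gave 686, 278 and 1491. Under both settings more genes were higher than lower at 2-fold. At 2-fold 1118 probe sets were lower and 987 higher. List medians near 0 changed sign. As deposited they were 0.11 for ERBB, 0.26 for fatty acids, 0.14 for cyclins, 0.24 for 17q12, 0.22 for integrins and 0.11 for WNT and NOTCH. With the upper quartile filter they were 0.19 for ERBB, 0.14 for basal, -0.25 for fibroblast and -0.36 for endothelial and leukocyte markers, and 0.0546 for 17q12. ERBB was 0.0502 with the mean and 17q12 0.0033 with the median over probe sets, calcineurin -0.11 without a filter, and fibroblast markers -0.0408 without probe sets marked _x_at, an alternative chosen after seeing the data. Medians closer to 0 crossed it too, among them cholesterol genes (up to 0.32), FOXO targets (0.35), p53 targets (0.38), splicing factors (0.26) and the clock (0.21). The cause of these changes was not tested. With 1 array a side and a shared control, a difference of either culture or hybridization from another cause enters every value.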

Other observations

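Metal-binding genes were mostly lower and histone genes mostly higher. Of 10 analysed metallothioneins and zinc transporters, 9 were lower in IBC-II and 1 higher, with a median of -0.52, none at 2-fold, MT1H at -0.92 and MT1X at -0.79. Of 11 replication-dependent histones, 8 were higher and 3 lower, with a median of 0.50 that came to 0 under at least 1 alternative. H1-3 had 40.2 in IBC-II and lay at the floor in pLKO. The calcium and calmodulin-dependent kinase CAMK2D had 341 and 191, a median of 0.75 over 4 probe sets (SD 0.19), while CAMK2G had a median of 0.15 with an SD of 0.61. Its list, with PPP3CA, had a median of 0.17 over 9.

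Several groups had medians near 0. They were -0.10 for splicing factors (17 members, SRSF7 at -0.68), -0.08 for the circadian clock (14, with the repressor NFIL3 2.45-fold lower), 0.09 for the NRF2 and thioredoxin system (23), -0.06 for FOXO targets (20) and 0 for mucins and secretory proteins (11). In the last, the chaperone CLU had 1095 in IBC-II and 499 in pLKO, 2.19-fold higher, and MUC5B had 116 and 263, 2.28-fold lower by its brighter probe set and 0.65 higher on the log2 scale by the other.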
